A study of Saccharomyces cerevisiae with 21 samples.

Results

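The comparison described here set the yeast strain rpb1-FSP against its wild type (WT), with 3 RNA-seq libraries of each, 6 of the 21 libraries of the series. Rpb1 is the largest subunit of RNA polymerase II, the enzyme that transcribes messenger RNAs and many small nucleolar RNAs. The strain is named in the labels by the letters of the altered Rpb1 residues, F, S and P, without their positions. The other strains of the series were rpb1-TPY, the double mutant rpb1-TPY,FSP, and spt6-R, spt6-KK and spt6-R,KK, which carry changes in Spt6. Saccharomyces cerevisiae of all 7 strains was harvested in logarithmic growth at 30 °C in rich medium, and total RNA was depleted of ribosomal RNA and read as stranded pairs of 50 bases. Libraries of a strain carry the same strain number in the labels, so each strain stands for 1 isolate. Whether the 3 libraries of a strain were grown as separate cultures is not given in the labels, and p-values here weigh differences only against the spread among libraries, which may be technical.

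Spt6 is an essential histone chaperone that travels with RNA polymerase II and helps to rebuild nucleosomes behind it. Its tandem SH2 domain (tSH2) binds the linker of Rpb1, the flexible stretch between the polymerase core and the repeats of the C-terminal domain, in a manner that depends on phosphorylation of the linker. Changes on either side of this contact therefore address the same question, namely which transcripts depend on the attachment of Spt6 to the linker. Loss of Spt6 function in yeast is known to affect transcription through promoters, start-site use within genes and the level of SER3.

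Full-gene totals, which count all reads assigned to a gene, were 7231414, 6850069 and 4860861 in the WT libraries and 5584434, 6244054 and 6207895 in the rpb1-FSP libraries. No pair among the 210 pairs of libraries held identical values. The ribosomal RNA that escaped depletion differed between the strains. It took 7.10%, 12.6% and 19.1% of the mid-gene counts in WT and 3.39%, 3.09% and 3.50% in rpb1-FSP. Nuclear ribosomal RNA alone took 5.81%, 11.4% and 18.1% of the mid-gene counts in WT and 2.19%, 1.83% and 2.37% in rpb1-FSP. It took 1.56% to 5.01% in the libraries of the other mutant strains, so each WT library stood above every mutant library. Whatever set the WT libraries apart cannot be told apart from the mutation in rpb1-FSP against WT, and its part in the changes below was not tested. In the full-gene table nuclear ribosomal RNA was nearly uncounted, at 0.000292% or less in these 6 libraries. The ribosomal RNA share there, 1.51% to 1.61% in WT and 1.32% to 1.48% in rpb1-FSP, was almost wholly mitochondrial. Levels are given as CPM, each gene's share of a library's counts after scaling by the trimmed mean of M-values (TMM), not divided by gene length. Changes are log2 ratios of rpb1-FSP to WT with a standard error, and a gene was called at an adjusted p under 0.05 in edgeR's quasi-likelihood test. That standard error was derived from the test, as the size of the fitted log2 change divided by the square root of its F statistic.

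Expression of the mutated gene itself did not change detectably. RPO21, which encodes Rpb1, stood at 548, 531 and 532 CPM in WT and 541, 488 and 572 CPM in rpb1-FSP, a log2 change of -0.01 ± 0.12 (adjusted p = 0.984). SPT6 stood at 232, 279.8 and 288 CPM in WT and 239.7, 267 and 231 CPM in rpb1-FSP, a log2 change of -0.12 ± 0.16 (adjusted p = 0.785). In both genes the values of the 2 strains overlapped. RNA levels of RPO21 do not check the label of a strain with changed residues. TRP1, a tryptophan synthesis gene that serves as a selectable marker, separated the strains: it stood at 0.902, 0.628 and 0.683 CPM in WT and at 20.2, 20.3 and 19.3 CPM in rpb1-FSP (log2 4.70 ± 0.25, adjusted p = 1.2e-10). The other mutants had mean TRP1 levels of 18 to 29 CPM except rpb1-TPY,FSP, at 0.769 CPM. The labels give no TRP1 genotype, so the change in TRP1 cannot be told apart from how the strains were built. In the receptor genes both strains had the pattern of MATa cells, with the a-cell gene STE2 at 616 to 947 CPM and the alpha-cell gene STE3 at 0.785 to 2.86 CPM. The a-specific genes MFA1, MFA2, BAR1 and AGA2 were at 44.9 CPM or more in all 6 libraries. ASG7, also a-specific, was as low as STE3, at 0.683 to 2.56 CPM in WT and 0.659 to 3.09 CPM in rpb1-FSP.

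Of 5618 genes tested, 132 (2.35%) were called in rpb1-FSP against WT, with 50 higher (0.89%) and 82 lower (1.46%). Only 15 rises and 9 falls reached 2-fold, and the median log2 change over all genes tested was -0.0033. All 132 called genes had no overlap in CPM between the 3 libraries of each strain, a property also of 13% of all genes tested with higher values and 14.5% with lower values. The rises were spread over many functions and over all expression levels, while the falls were gathered among the most abundant messages: 54 of the 82 lower genes lay in the highest of 5 equal bins of genes by level. An unadjusted p under 0.05 was reached by 924 genes. The count depended on single libraries: it was 110, 52 and 70 without WT library 1, 2 or 3 and 73, 71 and 49 without rpb1-FSP library 1, 2 or 3. A core of 45 genes, 21 higher and 24 lower, was called in all 6 of these fits. In bulk cultures a change in every cell and a change in a share of the cells cannot be told apart.

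**Figure D1:**
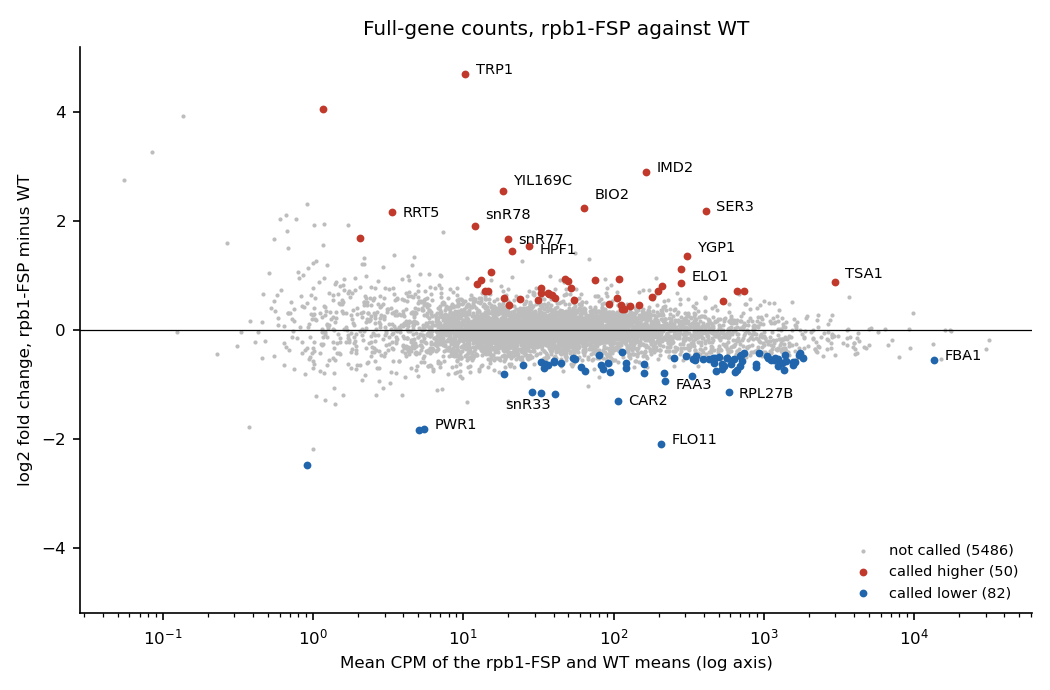
Log2 change of rpb1-FSP against WT (vertical axis) plotted against mean CPM on a log axis (horizontal axis), 1 point for each of the 5618 genes tested, with the 132 called genes coloured. The 50 higher genes are scattered along the expression axis and the 82 lower genes crowd at its right end.

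The gene with the largest rise after TRP1 among those measured at 20 counts or more was IMD2 (YHR216W, chrVIII:554396-555967), an inosine monophosphate dehydrogenase of guanine nucleotide synthesis. Yeast controls IMD2 by the choice of start site: with ample GTP, polymerase starts upstream and the short transcript is terminated and degraded, and with low GTP it starts downstream and makes the message. IMD2 stood at 35.3, 29.8 and 51.9 CPM in WT and at 260.2, 305 and 304 CPM in rpb1-FSP. The lowest rpb1-FSP library was thus above the highest WT library, and the change was log2 2.90 ± 0.17 (adjusted p = 6.68e-10). Counts over the middle of the gene gave log2 2.78. The stretch from 400 to 110 bases before its start codon (chrVIII:553996-554285, plus strand, R64 genome from RefSeq) is shown because it holds the TATA box motif TATAAA, in capitals, downstream of which the start sites of both kinds of transcript lie.
IMD2 upstream: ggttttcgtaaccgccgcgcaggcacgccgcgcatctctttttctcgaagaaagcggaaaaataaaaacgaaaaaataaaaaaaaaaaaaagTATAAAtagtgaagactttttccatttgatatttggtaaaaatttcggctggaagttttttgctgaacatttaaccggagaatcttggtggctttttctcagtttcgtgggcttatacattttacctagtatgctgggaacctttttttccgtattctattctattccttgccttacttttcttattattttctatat
The motif TATAAA, sought on both strands in the 500 bases before the start codon, was in 31 of 46 higher genes with a coding annotation (67.4%) and in 60.1% of all 5493 such genes tested.

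SER3 (YER081W, chrV:322686-324095), the first enzyme of serine synthesis, is kept low in rich medium by transcription of the noncoding SRG1 across its promoter. SER3 stood at 165, 111 and 169 CPM in WT and at 534, 758 and 739 CPM in rpb1-FSP, with no overlap (log2 2.19 ± 0.28, adjusted p = 0.000122). SRG1, which shares 77 bases with SER3 on the same strand, was counted in the mid-gene table alone. It stood there at 28.8, 36.1 and 31.1 CPM in WT and at 61.7, 64.8 and 72.9 CPM in rpb1-FSP (log2 1.05 ± 0.12, adjusted p = 1.9e-05 in the mid-gene fit). Both transcripts rose, and SER3 rose by log2 2.14 in the same mid-gene fit. The table does not separate SRG1 reads from longer transcripts that pass through it.

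URA8 (YJR103W, chrX:620754-622490), the minor CTP synthase, is a further gene whose start site follows nucleotide supply. It stood at 71, 67.2 and 85.7 CPM in WT and at 133, 151 and 145 CPM in rpb1-FSP (log2 0.94 ± 0.15, adjusted p = 0.00167). Among 8 measured genes of start-site choice and upstream transcription, IMD2, SER3 and URA8 were called higher and none lower, with a median log2 change of 0.28. Of all genes tested 0.89% were called higher and 1.46% lower. The list was chosen with earlier results of these data known. Neither paralog of IMD2 was called, with log2 changes of 0.17 for IMD3 and 0.36 for IMD4, nor were URA2 at 0.19, ADE12 at 0.13 and the GMP synthase gene GUA1 at -0.25. None of 12 genes with known cryptic internal promoters was called by edgeR or by DESeq2; 1, lower, passed an unadjusted p under 0.05, and their median log2 change was 0.05.

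Biotin genes moved in both directions. BIO2 (YGR286C, chrVII:1063813-1064940), the biotin synthase, stood at 19.1, 22 and 25.5 CPM in WT and at 98.0, 106 and 112 CPM in rpb1-FSP (log2 2.25 ± 0.19, adjusted p = 2.02e-07). BPL1 (YDL141W, chrIV:203039-205111), the ligase that attaches biotin to carboxylases, stood at 124, 123 and 110.3 CPM in WT and at 74.3, 62.0 and 74.2 CPM in rpb1-FSP (log2 -0.76 ± 0.13, adjusted p = 0.00199). Neither gene had overlapping values. BIO3, an earlier step of biotin synthesis, had a log2 change of 0.76 ± 0.21 (adjusted p = 0.0504), and the biotin transporter gene VHT1 one of 0.77 ± 0.28 (adjusted p = 0.154). BPL1 is the gene directly beside RPO21. Among the 3 annotated genes on either side of RPO21, BPL1 and ARF2 (log2 -0.69, adjusted p = 0.0216) were called lower and CRD1 (log2 0.46, adjusted p = 0.0433) was called higher. Of all genes tested 1.46% were called lower and 0.89% higher. CCT4 (-0.06), SCM3 (-0.27) and RGT2 (0.35) were not called. The CRD1 call was lost without any 1 of the 6 libraries (adjusted p = 0.0814 to 0.161), and that of ARF2 was lost without WT library 1 or 2 or rpb1-FSP library 2 or 3 (up to 0.143). How the rpb1 alleles were introduced is not given in the sources used here, and its part in the levels of these neighbours was not tested.

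Of 37 cell wall genes measured, edgeR called 4 higher and none lower, beside 0.89% and 1.46% of all genes tested, and the median log2 change was 0.15. DESeq2 called 4 higher and 1 lower, 9 were higher and 2 lower at an unadjusted p under 0.05, and 13 had values below 0. HPF1 (YOL155C, chrXV:28703-31606), a heavily glycosylated cell wall mannoprotein, stood at 17.7, 10.8 and 13.4 CPM in WT and at 45.8, 39.2 and 38.4 CPM in rpb1-FSP (log2 1.55 ± 0.26, adjusted p = 0.00219). Its relative YIL169C (chrIX:23119-26106) stood at 4.21, 3.14 and 9.34 CPM in WT and at 19.3, 34.6 and 39.2 CPM in rpb1-FSP (log2 2.56 ± 0.46, adjusted p = 0.00291). The 2 genes share similar repeats, so the division of reads between them is uncertain. The other calls were PST1, a GPI-anchored wall protein (log2 0.61 ± 0.15, adjusted p = 0.0328), and YGP1, a secreted glycoprotein of the stress and starvation response. YGP1 stood at 230.3, 145 and 143 CPM in WT and at 544, 380.2 and 402 CPM in rpb1-FSP (log2 1.35 ± 0.30, adjusted p = 0.019). Its call was lost without WT library 2 or 3 or rpb1-FSP library 1 or 3 (adjusted p up to 0.119), and that of PST1 was lost in 5 of the 6 fits without a library, all but that without WT library 1 (up to 0.186).

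FLO11 went the other way. FLO11 (YIR019C, chrIX:389572-393675) encodes the flocculin of adhesion and filamentous growth, a gene with a long promoter crossed by the noncoding RNAs ICR1 and PWR1. FLO11 stood at 218, 467 and 319 CPM in WT and at 44.9, 87.9 and 104 CPM in rpb1-FSP. It varied more than 2-fold within each strain and did not overlap between them (log2 -2.08 ± 0.29, adjusted p = 0.000318). PWR1 stood at 5.87, 13.5 and 6.38 CPM in WT and at 2.00, 2.20 and 3.13 CPM in rpb1-FSP (log2 -1.81 ± 0.44, adjusted p = 0.0318), a call lost without WT library 2 or any 1 rpb1-FSP library (adjusted p up to 0.247). PGU1, a secreted pectinase, stood at 6.17, 10.7 and 6.83 CPM in WT and at 1.45, 2.83 and 2.31 CPM in rpb1-FSP (log2 -1.83 ± 0.47, adjusted p = 0.0407), a call lost in 5 of the 6 fits, all but that without WT library 1 (up to 0.226).

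CAR2, FDC1 and AAH1 were further falls in metabolism, and belong to different pathways. CAR2 (YLR438W, chrXII:1012501-1013775), the ornithine transaminase of arginine breakdown, stood at 155, 159 and 143 CPM in WT and at 58.0, 61.8 and 66.3 CPM in rpb1-FSP (log2 -1.29 ± 0.15, adjusted p = 4.49e-05). FDC1, a decarboxylase of aromatic carboxylic acids, stood at 34.7, 51.8 and 50.1 CPM in WT and at 19.6, 21.7 and 20.3 CPM in rpb1-FSP (log2 -1.14 ± 0.18, adjusted p = 0.00168). AAH1, the adenine deaminase, stood at 152, 218 and 233 CPM in WT and at 118, 121 and 109 CPM in rpb1-FSP (log2 -0.79 ± 0.15, adjusted p = 0.00613). All 3 were separated between the strains, and the AAH1 call was lost without WT library 3 or rpb1-FSP library 3 (adjusted p up to 0.0549). DYN2, the dynein light chain that also belongs to the nuclear pore, fell by 0.81 ± 0.14 on the log2 scale (adjusted p = 0.00219).

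Lipid genes moved in both directions. ELO1 (YJL196C, chrX:67850-68782), which elongates medium-chain fatty acids, stood at 205, 170.0 and 157 CPM in WT and at 432, 348 and 384 CPM in rpb1-FSP (log2 1.13 ± 0.17, adjusted p = 0.000649). FAA3, an acyl-CoA synthetase that activates long-chain fatty acids, stood at 291, 345 and 231 CPM in WT and at 181, 141 and 133 CPM in rpb1-FSP (log2 -0.93 ± 0.15, adjusted p = 0.00169). Of 27 ergosterol genes, 2 were called, both higher: MVD1 of the mevalonate steps (log2 0.71 ± 0.12, adjusted p = 0.00199) and ERG9, the squalene synthase (log2 0.55 ± 0.09, adjusted p = 0.00211). Their list had a median log2 change of 0.11, and 11 of the 27 had values below 0. Of all genes tested 0.89% were called higher and 1.46% lower.

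Single members rose in several further pathways. TSA1, the main cytosolic peroxiredoxin, stood at 2037, 2263 and 1954 CPM in WT and at 3563, 3848 and 4185 CPM in rpb1-FSP (log2 0.89 ± 0.14, adjusted p = 0.00169), which made it the most abundant called rise named here. CCP1, the mitochondrial cytochrome c peroxidase, rose by log2 0.72 ± 0.13 (adjusted p = 0.00393). MET3, the ATP sulfurylase, rose from 34.4, 33.1 and 36.7 CPM to 69.4, 61.8 and 64.1 CPM (log2 0.91 ± 0.11, adjusted p = 8.51e-05). PMA2, the minor form of the plasma membrane proton pump, rose by log2 0.93 ± 0.15 (adjusted p = 0.00185), and TRS31, a subunit of the TRAPP vesicle-tethering complex, by log2 0.92 ± 0.12 (adjusted p = 0.000122). ADH2, the glucose-repressed alcohol dehydrogenase, was at 10.7, 13.7 and 9.11 CPM in WT and 32.2, 30.2 and 30.2 CPM in rpb1-FSP (log2 1.45 ± 0.33, adjusted p = 0.0205). The ADH2 change had the opposite sign, -0.45, over the middle of the gene (adjusted p = 0.209) and its call was lost without any 1 of the 6 libraries (0.0502 to 0.101), so ADH2 carries no direction here. ADH2 is close in sequence to ADH1.

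RRT5 (chrVI:222090-222959), of uncharacterised function, was a scarce message that rose from 0.752, 1.57 and 1.37 CPM to 6.72, 5.35 and 4.45 CPM (log2 2.16 ± 0.36, adjusted p = 0.00185). UTR5 was called too but stayed under 20 counts, at 0.150, 0 and 0.228 CPM in WT and 1.45, 2.36 and 2.80 CPM in rpb1-FSP. PHO3, a secreted acid phosphatase that is not part of the starvation response, stood at 513, 518 and 466 CPM in WT and at 830.0, 754 and 879 CPM in rpb1-FSP (log2 0.72 ± 0.12, adjusted p = 0.00219). Those genes were separated between the strains. In glycolysis FBA1, the aldolase, stood at 16024, 15529 and 17018 CPM in WT and at 10465, 11015 and 11551 CPM in rpb1-FSP (log2 -0.56 ± 0.12, adjusted p = 0.0189), a call lost in all fits without a library but that without WT library 1 (adjusted p up to 0.0941). The alcohol dehydrogenase gene ADH4 was higher by log2 0.46 ± 0.10 (adjusted p = 0.0117), lost without WT library 3 or rpb1-FSP library 1 or 3 (up to 0.0772). The polyubiquitin gene UBI4 had a log2 change of 0.66 (adjusted p = 0.0356) and the urea transporter gene DUR3 one of 0.72 (adjusted p = 0.0207). UBI4 stayed called only without WT library 3, and DUR3 only without that library or rpb1-FSP library 2 (up to 0.226 and 0.130).

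**Figure D2:**
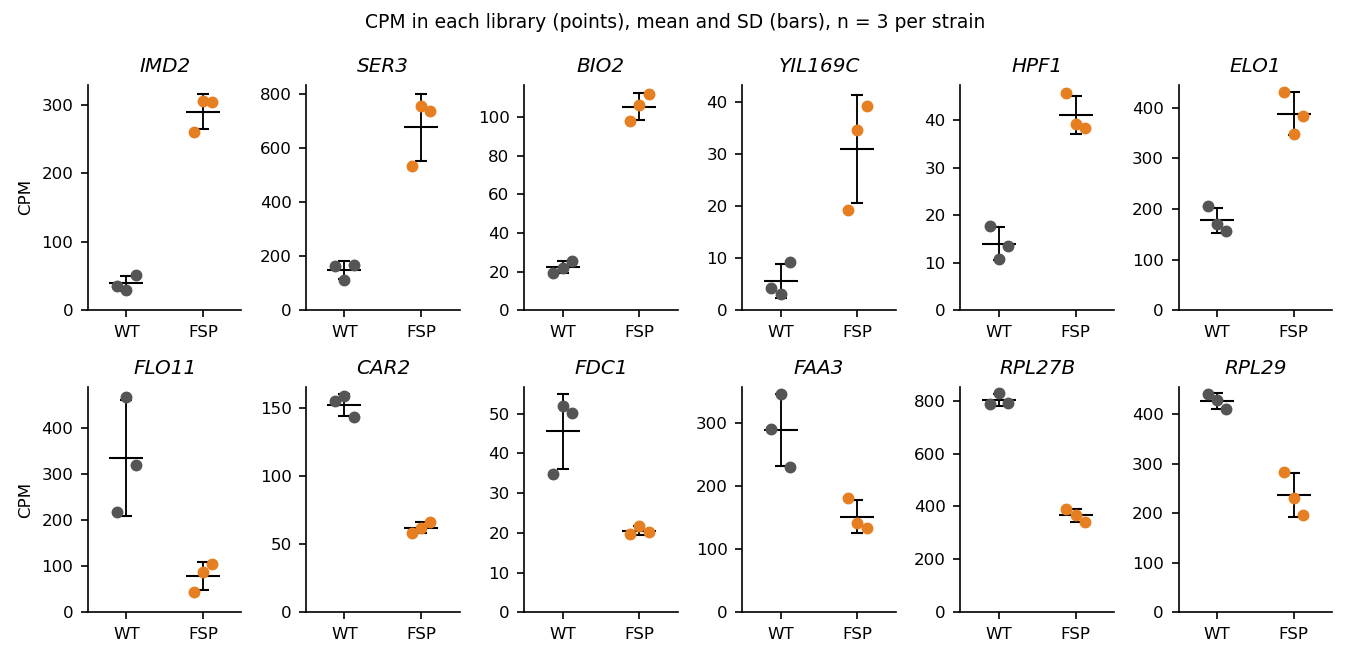
CPM in each of the 3 WT and 3 rpb1-FSP libraries (points) with mean and SD (bars) for 12 genes, 1 panel a gene. IMD2 moves from 39.0 ± 11.5 to 289.8 ± 25.6 CPM and FLO11 from 335 ± 125 to 79.0 ± 30.6 CPM (SD, n = 3). In no panel do the strains overlap, which was so for all 132 called genes.

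Ribosomal protein genes made up 46 of the 82 falls (56.1%). Cytosolic ribosomal protein messages are among the most abundant in a growing yeast cell and are transcribed together, mostly under Rap1, in proportion to growth. In the large subunit 31 of 81 genes tested were lower and none higher, with a median log2 change of -0.41; 80 of 81 had values below 0 and 67 passed an unadjusted p under 0.05. In the small subunit 15 of 57 were lower and none higher, with a median of -0.42 and 56 values below 0. Over all genes tested 1.46% were lower and the median was -0.0033. With the RLE size factors 25 and 11 genes of the large and small subunits were lower, with upper-quartile scaling 28 and 13, and with DESeq2 42 and 30, and none was higher with any of them. With only the 6 libraries of the 2 strains fitted 68 and 41 were lower. Leaving out 1 library always lowered the counts: to 19, 11 and 17 large-subunit genes without WT library 1, 2 or 3 and to 20, 16 and 10 without rpb1-FSP library 1, 2 or 3, and for the small subunit to 7, 4 and 7 and to 10, 6 and 2. The summed large-subunit messages took 9.54%, 9.73% and 9.52% of the counts in WT and 8.15%, 8.04% and 7.64% in rpb1-FSP, and those of the small subunit 7.16%, 7.28% and 7.13% in WT and 6.22%, 6.16% and 5.80% in rpb1-FSP. Neither sum overlapped between the strains.

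RPL27B (YDR471W, chrIV:1401770-1402564) fell furthest among them. RPL27B stood at 788, 828 and 792 CPM in WT and at 391, 369 and 341 CPM in rpb1-FSP (log2 -1.13 ± 0.12, adjusted p = 5.9e-06). Its paralog RPL27A encodes a near-identical protein and stood at 833, 827 and 779 CPM in WT and 610.3, 611 and 551 CPM in rpb1-FSP (log2 -0.46 ± 0.11, adjusted p = 0.0345). Both copies fell, and RPL27B lay below RPL27A in every rpb1-FSP library. The next largest falls were RPL29 at log2 -0.85 ± 0.14 (adjusted p = 0.00184), RPL36A at -0.79 ± 0.14 (adjusted p = 0.00226), RPL41A at -0.77 ± 0.17 (adjusted p = 0.0205), RPL22B at -0.75 ± 0.14 (adjusted p = 0.00517) and RPL42A at -0.75 ± 0.12 (adjusted p = 0.00168). RPL41A was no longer called without WT library 1 or 2 or rpb1-FSP library 2 or 3 (up to 0.126). In the small subunit RPS23A fell from 826, 846 and 868 CPM to 552, 554 and 503 CPM (log2 -0.66 ± 0.12, adjusted p = 0.00401), and RPS6B had a log2 change of -0.65 ± 0.12 (adjusted p = 0.00508). Over 59 duplicated ribosomal proteins both copies were called in 5 (RPL22, RPL24, RPL27, RPL35 and RPL36), 1 copy in 32 and neither in 22. Paralogs can share reads where their sequences are alike, so the split between copies is uncertain.

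A stretch upstream of RPL27B (chrIV:1401320-1401569, plus strand, 450 to 200 bases before the start codon) is shown for its match to the Rap1 motif CACCC, any 2 bases, then ACA, in capitals.
RPL27B upstream: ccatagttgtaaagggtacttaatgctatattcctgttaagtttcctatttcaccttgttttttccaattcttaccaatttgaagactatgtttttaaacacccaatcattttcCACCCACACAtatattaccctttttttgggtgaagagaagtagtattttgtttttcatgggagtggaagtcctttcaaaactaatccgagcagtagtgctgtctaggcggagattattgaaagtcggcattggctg
On both strands of the 500 bases before the start codon this motif was in 12 of 46 called ribosomal protein genes (26.1%), in 17 of 92 that were not called (18.5%) and in 2.22% of all genes tested. The called ribosomal protein genes held an intron in 63.0% of cases and those not called in 66.3%, so the share with an intron was similar in both.

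Falls reached other parts of protein synthesis. EFB1, a subunit of the elongation factor that reloads GTP, stood at 1892, 1983 and 1815 CPM in WT and 1230.3, 1177 and 1239 CPM in rpb1-FSP (log2 -0.64 ± 0.12, adjusted p = 0.00361), and its gene overlaps a small noncoding RNA gene of the same strand by 102 bases. RPG1, a subunit of initiation factor eIF3, was the other of 36 translation factors called, at log2 -0.52 ± 0.12 (adjusted p = 0.0207). Of 58 ribosome biogenesis genes 3 were called lower, all 58 had values below 0, the median log2 change was -0.41 and 39 were lower at an unadjusted p under 0.05. Over all 5618 genes tested 1.46% were called lower, 2842 had values below 0 and 532 were lower at an unadjusted p under 0.05. For ribosome biogenesis genes DESeq2 called 15, and edgeR called 7 without WT library 1 and none without any 1 of the other 5 libraries. The 3 were NHP2 (log2 -0.60 ± 0.15, adjusted p = 0.0356) and NOP10 (log2 -0.45, adjusted p = 0.0374), core proteins of H/ACA ribonucleoproteins, and NOP58 (log2 -0.50, adjusted p = 0.0271), a core protein of C/D ribonucleoproteins. Calls of NHP2 and NOP10 were lost without any 1 library (adjusted p up to 0.17 and 0.191), and that of NOP58 in all but the fit without WT library 1 (up to 0.138). RPC19, a subunit shared by RNA polymerases I and III, had a log2 change of -0.54 (adjusted p = 0.0318) and was called without WT library 1 but lost without any 1 of the other 5 (up to 0.175); RPG1 and the mitochondrial ribosomal protein gene MRPL44 (-0.63, adjusted p = 0.0356) were likewise each called in 1 of the 6 fits (up to 0.118 and 0.138).

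NIP7 and ALB1 act in assembly of the large ribosomal subunit. NIP7 (chrXVI:153495-154040) stood at 87.4, 101 and 112 CPM in WT and at 66.2, 61.3 and 64.5 CPM in rpb1-FSP (log2 -0.64 ± 0.12, adjusted p = 0.00489). ALB1 (chrX:189716-190243) stood at 70.4, 78 and 74.7 CPM in WT and at 47.4, 42.5 and 50.3 CPM in rpb1-FSP (log2 -0.67 ± 0.13, adjusted p = 0.00475). Both genes were separated between the strains and were called in each of the 6 fits without 1 library. Ribosome biogenesis promoters in yeast often carry the PAC motif (GATGAG) and the RRPE motif (AAAAATTT), which stand in capitals, on either strand, in the stretches 300 to 100 bases before each start codon (chrXVI:153195-153394 and chrX:189416-189615, plus strand).
NIP7 upstream: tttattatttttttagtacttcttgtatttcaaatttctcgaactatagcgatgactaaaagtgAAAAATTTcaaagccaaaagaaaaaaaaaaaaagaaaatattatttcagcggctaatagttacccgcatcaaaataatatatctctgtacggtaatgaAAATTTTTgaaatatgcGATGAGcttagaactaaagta
ALB1 upstream: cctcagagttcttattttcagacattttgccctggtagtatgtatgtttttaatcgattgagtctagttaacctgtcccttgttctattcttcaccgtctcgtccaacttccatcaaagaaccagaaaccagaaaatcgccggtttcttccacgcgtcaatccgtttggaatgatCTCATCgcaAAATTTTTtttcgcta
In the 500 bases before the start codon, PAC was in 15 of the 30 lower coding genes that were not ribosomal protein genes (50.0%), against 28.1% of all genes tested, and RRPE in 14 of them (46.7%), against 21.4%. Both were present in 9 of them, namely ALB1, ECM1, NHP2, NIP7, NOP10, NOP58, RPC19, YBL055C and YCR087C-A. These matches are a description of the letters, not of factor binding.

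**Figure D3:**
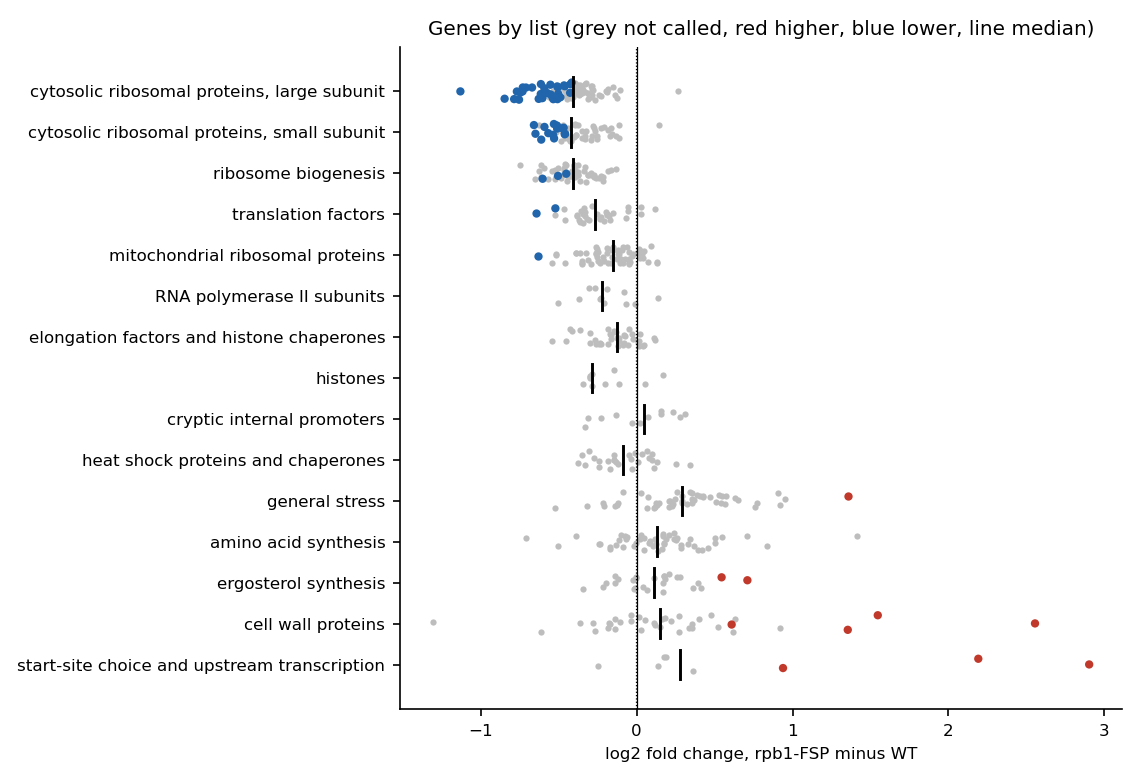
Log2 change of rpb1-FSP against WT for the members of 15 gene lists (points), with each list's median (line) and the median of all genes tested (dotted). Ribosomal protein and biogenesis genes lie almost wholly below 0, with medians of -0.41, -0.42 and -0.41, and general stress genes mostly above 0, with a median of 0.29.

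Small nucleolar RNAs guide the modification and processing of ribosomal RNA, the C/D class for methylation of the ribose and the H/ACA class for pseudouridine. In edgeR 4 of 43 C/D RNAs were called higher and none lower, and 4 of 29 H/ACA RNAs lower and none higher, beside 0.89% higher and 1.46% lower of all genes tested. Other counts did not divide by class: at an unadjusted p under 0.05, 5 C/D RNAs were higher and 11 lower, and 1 H/ACA RNA was higher and 9 lower. DESeq2 called 4 C/D RNAs higher and 2 lower and 4 H/ACA RNAs lower, and gave 23 C/D RNAs no adjusted p. The median log2 change was -0.08 over all C/D and -0.27 over all H/ACA RNAs. Without any 1 library 1 or 2 C/D RNAs were still called higher and 2 H/ACA RNAs lower, and without WT library 3 or rpb1-FSP library 1 a total of 3 small nucleolar RNAs were lower, so 1 outside the H/ACA class. With only the 6 libraries fitted 14 were lower, 8 of them H/ACA, and with the replicate block 6, 4 of them H/ACA. The 4 higher RNAs were 87 to 95 bases long and the 4 lower ones 183 to 606 bases. The division by class was drawn up after the values had been seen. Total RNA libraries recover short RNAs poorly and by length, and the part of RNA length in these values was not tested.

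snR78 and snR77 open a chromosome XIII cluster that is transcribed as 1 precursor and holds snR72 to snR78. They are shown, with the H/ACA RNA snR33, since they moved in opposite directions (snR78 chrXIII:297278-297364, plus strand; snR77 chrXIII:297506-297593, plus strand; snR33 chrIII:142364-142546, minus strand). Capitals mark the C box (TGATGA) and D box (CTGA) of the C/D RNAs and the ACA box of snR33, 3 bases from its end.
snR78: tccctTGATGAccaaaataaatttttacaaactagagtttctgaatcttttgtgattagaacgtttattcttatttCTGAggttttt
snR77: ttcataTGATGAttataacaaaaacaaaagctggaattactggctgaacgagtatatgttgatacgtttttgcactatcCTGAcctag
snR33: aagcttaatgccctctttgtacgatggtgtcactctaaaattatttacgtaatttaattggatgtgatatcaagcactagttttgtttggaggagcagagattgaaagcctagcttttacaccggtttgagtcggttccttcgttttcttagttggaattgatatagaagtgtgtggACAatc
snR77 stood at 9.78, 10.2 and 8.20 CPM in WT and at 24.9, 30.8 and 34.5 CPM in rpb1-FSP (log2 1.67 ± 0.29, adjusted p = 0.00219). snR78 stood at 3.61, 3.45 and 8.43 CPM in WT and at 14.2, 15.6 and 26 CPM in rpb1-FSP (log2 1.92 ± 0.42, adjusted p = 0.0152), a call lost without WT library 1 or 2 or rpb1-FSP library 3 (up to 0.118). Both RNAs rose, and the 5 members downstream of them were not called, with log2 values of -0.80 for snR76 (adjusted p = 0.12), -1.29 for snR75 (0.369), 0.01 for snR74, -0.70 for snR73 (0.271) and -0.59 for snR72 (0.571). snR76 stood at 10.8, 8.64 and 10.7 CPM in WT and at 6.54, 5.35 and 5.44 CPM in rpb1-FSP, without overlap and in the other direction from its upstream neighbours. The remaining rises were snR53 (log2 1.70 ± 0.43, adjusted p = 0.0371), which was at 0.456 to 1.57 CPM in WT and was not called on mid-gene counts (0.0502), and snR38 (log2 1.06 ± 0.26, adjusted p = 0.0345), whose call was lost without any 1 library (up to 0.155).

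Among the H/ACA RNAs snR33 stood at 51.6, 64.7 and 52.6 CPM in WT and at 27.8, 24.5 and 22.6 CPM in rpb1-FSP (log2 -1.17 ± 0.21, adjusted p = 0.00239). snR43 stood at 37.8, 41.3 and 38.5 CPM in WT and at 19.4, 14.3 and 19.6 CPM in rpb1-FSP (log2 -1.14 ± 0.20, adjusted p = 0.00219). Neither overlapped between the strains, and both were called in each fit without 1 library. The other 2 were snR42 (log2 -0.72 ± 0.18, adjusted p = 0.0381) and snR30 (log2 -0.66 ± 0.17, adjusted p = 0.0407), an abundant RNA needed for cleavage of the ribosomal RNA precursor. Calls of snR42 and snR30 were lost without any 1 library and in the mid-gene table (adjusted p = 0.0521 and 0.0554). snR30 stood at 1654, 1523 and 1407 CPM in WT and at 970.3, 929.8 and 1002 CPM in rpb1-FSP. Of messages for the core proteins of both kinds of particle all 8 tested, 4 of each class, were lower at an unadjusted p under 0.05. EdgeR called 3 of them lower at the adjusted threshold, the NHP2, NOP10 and NOP58 given above, while DESeq2 called all 8. EdgeR called none of the 8 without any 1 library other than WT library 1. Over all 5618 genes tested 532 were lower at an unadjusted p under 0.05, 1.46% were called lower by edgeR and 157 by DESeq2.

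**Figure D4:**
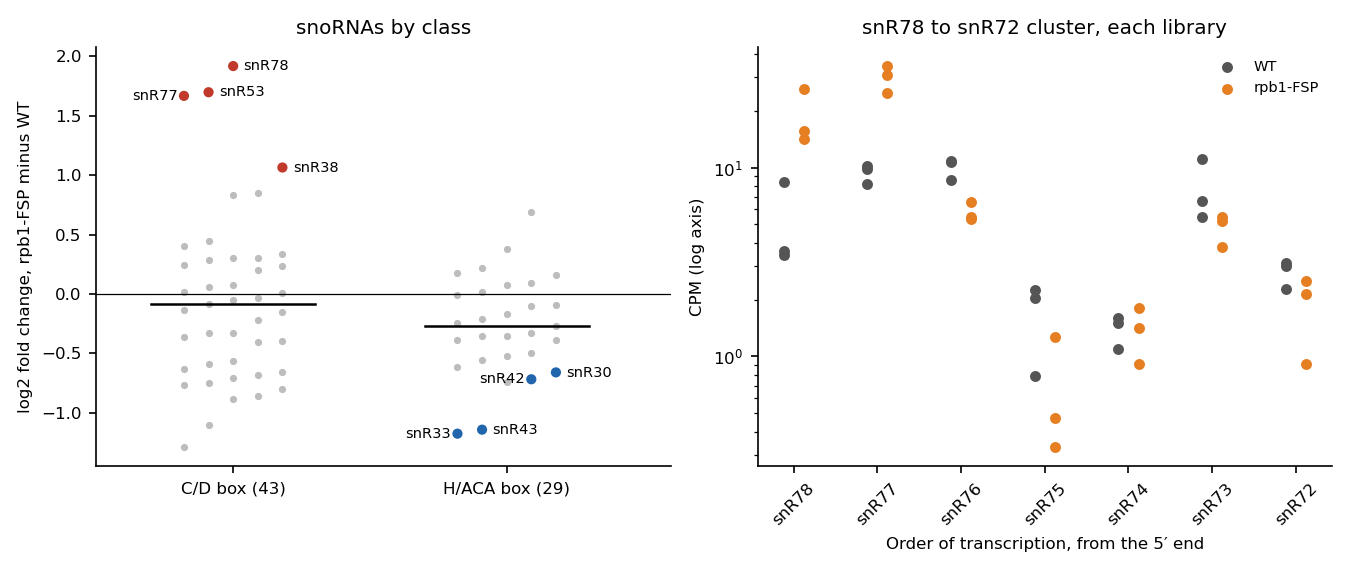
Left, log2 change of small nucleolar RNAs in rpb1-FSP against WT by class, 1 point an RNA, with called RNAs coloured. Right, CPM on a log axis in each library for the 7 members of the snR78 to snR72 cluster in their order on the chromosome: snR78 and snR77 are higher in every rpb1-FSP library than in any WT library, and no other member was called.

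Other lists held few calls. Of 51 general stress genes 1, YGP1, was called higher and none lower, but 43 had values above 0, with a median log2 change of 0.29. Their summed level was 0.425%, 0.307% and 0.399% of counts in WT and 0.520%, 0.496% and 0.471% in rpb1-FSP, without overlap. The stress response element motif AGGGG was in 22 of 46 higher genes (47.8%) and in 34.4% of all genes tested. EdgeR called no gene in the lists that follow. RNA polymerase II subunits (12 genes, median -0.22) had 4 lower at an unadjusted p under 0.05 and 1 by DESeq2, and elongation factors and histone chaperones (39 genes, median -0.12) had 6 and 1. Histones (11 genes, median -0.28) had 2 lower at an unadjusted p and none by DESeq2, and heat shock genes (28 genes, median -0.09) had 4 and none. Of 52 amino acid synthesis genes edgeR called none, 5 higher and 1 lower passed an unadjusted p under 0.05, and DESeq2 called 1 each way.

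Counts of sense reads over the middle 70% of each gene gave much the same calls. Of 5667 genes tested there 122 (2.15%) were called, 49 higher (0.865%) and 73 lower (1.29%), and 104 were shared with the full-gene calls, 78.8% of the full-gene and 85.2% of the mid-gene calls. Of the 132 full-gene calls 131 had the same direction, ADH2 being the exception. The 18 genes called in the mid-gene table alone included ribosomal DNA features, such as RDN18-1 at log2 -4.77, which were barely counted in the full-gene table. RDN18-1 went in the same direction as the nuclear ribosomal RNA shares given above, but by more than they did. In the authors' deposited table, whose comparison of the full-gene counts used DESeq2, 3903 genes had an adjusted p for rpb1-FSP against WT. Of these, 231 were under 0.05, 74 higher and 157 lower. TRP1, RRT5, DYN2, PWR1, PGU1, DUR3, snR38 and snR78, all called here among 5618 genes tested, had no adjusted p there. That authors' deposited table gives log2 changes of 2.64 for IMD2, -1.71 for FLO11 and -1.08 for RPL27B. Other genes differed more: it gives 1.38 for SER3, 1.23 for YIL169C and 0.95 for HPF1, against 2.19, 2.56 and 1.55 here. The sizes of change in the 2 sources are thus not interchangeable.

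The next comparison was with rpb1-TPY, the other single change of the Rpb1 linker. No WT library enters this contrast, but the 3 rpb1-FSP libraries are those of the comparison with WT. Of 5618 genes 103 (1.83%) were called, 47 higher (0.837%) and 56 lower (0.997%) in rpb1-FSP, though the count was 43, 51 and 33 without rpb1-FSP library 1, 2 or 3 and 183, 41 and 48 without rpb1-TPY library 1, 2 or 3. Of the 50 genes higher in rpb1-FSP than in WT, 31 were also higher than in rpb1-TPY, and of the 82 lower genes 45 were also lower. Since both comparisons use the same rpb1-FSP libraries, these counts describe the genes and are not independent of how they were chosen. IMD2 averaged 47.8 ± 3.34 CPM in rpb1-TPY (SD, n = 3), so rpb1-FSP was higher by log2 2.599 ± 0.17 (adjusted p = 7.41e-09). RPL27B averaged 832.5 ± 57.3 CPM in rpb1-TPY and was lower in rpb1-FSP by log2 -1.18 ± 0.12 (adjusted p = 3.67e-06). In the ribosome 21 large-subunit and 8 small-subunit genes were lower in rpb1-FSP than in rpb1-TPY, with medians of -0.34 and -0.33. BPL1 did not follow: it averaged 82.5 ± 13.7 CPM in rpb1-TPY, and the difference of -0.23 ± 0.13 was not called (adjusted p = 0.386).

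The double mutant rpb1-TPY,FSP, which carries both changes, stood further from WT than rpb1-FSP did for many of these genes. Between the double mutant and rpb1-FSP 934 genes (16.6%) were called, 468 higher (8.33%) and 466 lower (8.29%) in the double mutant. The count was 589 and 583 without rpb1-FSP library 2 or 3 and 631 to 937 without any other library. Of the 50 genes higher in rpb1-FSP than in WT, 20 were higher still in the double mutant and 1, TRP1, was lower, and of the 82 lower genes 52 were lower still and 1 was higher. The rpb1-FSP libraries are shared here too. HPF1 averaged 218 ± 29.3 CPM in the double mutant against 41.1 ± 4.07 CPM in rpb1-FSP (log2 2.41 ± 0.24, adjusted p = 4.12e-06). FLO11 averaged 21.1 ± 0.835 CPM in the double mutant (log2 -1.91 ± 0.30, adjusted p = 0.000203), and 70 large-subunit and 51 small-subunit ribosomal protein genes were lower, each with a median of -0.68. CAR2 was among the genes not called between them, and averaged 66.2 ± 13.2 CPM in the double mutant and 62.0 ± 4.15 CPM in rpb1-FSP (log2 0.09 ± 0.15, adjusted p = 0.716).

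Against spt6-KK, a change on the Spt6 side, few genes were called. Of 5618 genes 21 (0.374%) differed, 11 higher (0.196%) and 10 lower (0.178%) in rpb1-FSP, and none by 2-fold. Libraries of the same number in these 2 strains deviated together, and with the replicate number as a block 144 genes were called, 56 higher and 88 lower. DESeq2 called 200. The count rested on single libraries: it was 445 without spt6-KK library 1 and 0 without any 1 of the other 5 by edgeR, although 735 to 1231 genes then passed an unadjusted p under 0.05. Of the genes called in rpb1-FSP against WT, none of the 50 higher ones and 3 of the 82 lower ones were called against spt6-KK. BPL1 was 1 of them, at 106 ± 7.71 CPM in spt6-KK (SD, n = 3; log2 -0.60 ± 0.13, adjusted p = 0.0366). IMD2 averaged 373 ± 44.7 CPM in spt6-KK (log2 -0.36 ± 0.16, adjusted p = 0.176) and RPL27B 348 ± 48.5 CPM (log2 0.07 ± 0.12, adjusted p = 0.733). A difference that missed the threshold does not show that the levels are alike. Of the genes that were called, KAR4, a regulator of mating genes, had the largest difference among the lower ones (-0.95 ± 0.19, adjusted p = 0.0366) and ARE2, a sterol acyltransferase, among the higher ones (0.66 ± 0.12, adjusted p = 0.0366).

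**Figure D5:**
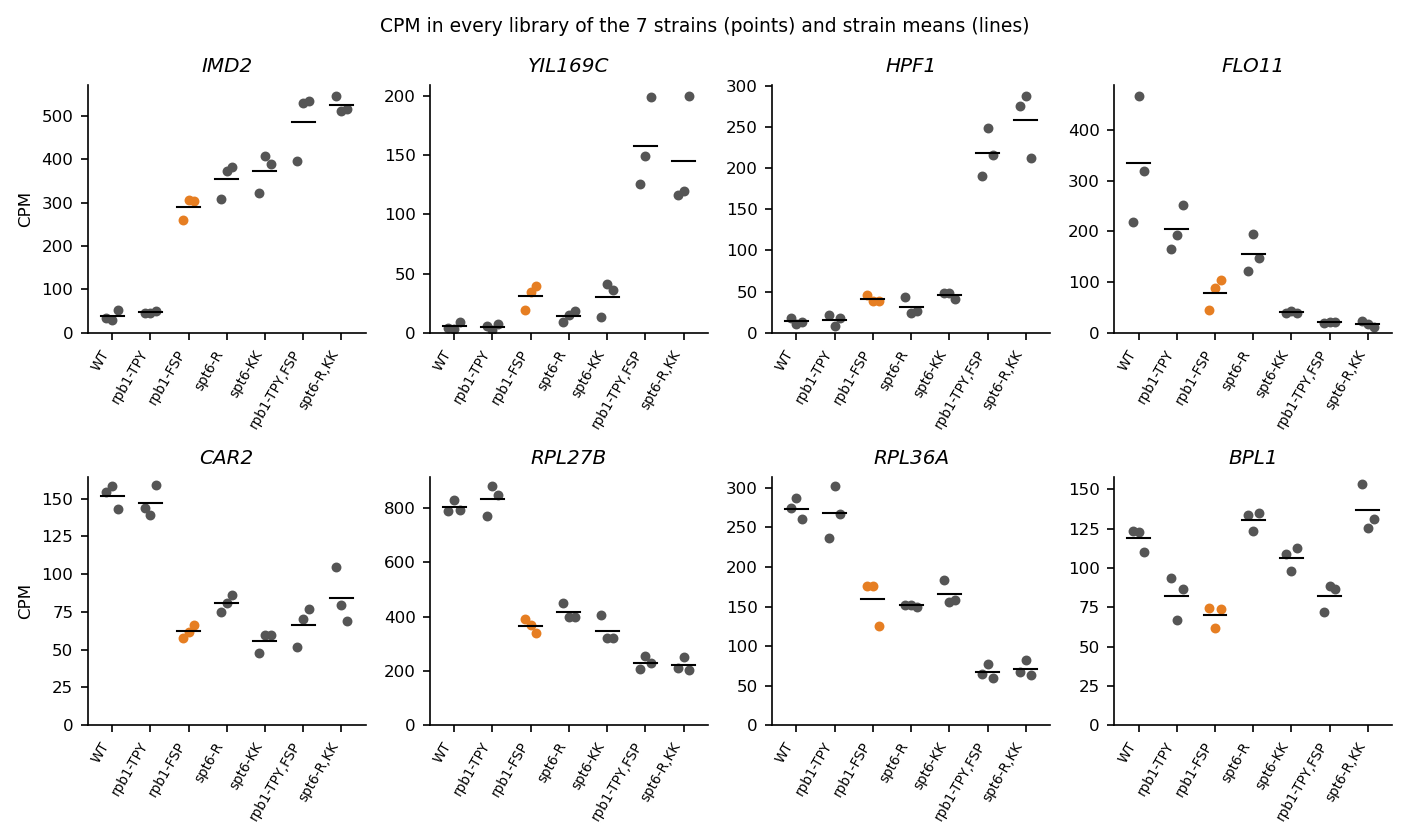
CPM in single libraries (points) and strain means (lines) of 8 genes in the 7 strains, on axes from 0. IMD2 and CAR2 in rpb1-TPY lie near WT, at 47.8 and 147 CPM, while BPL1 averages 82.5, 82.3 and 70.2 CPM in rpb1-TPY, rpb1-TPY,FSP and rpb1-FSP and 119 CPM in WT.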

How the data were processed

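Per the submitters' processing notes, reads were trimmed with cutadapt 1.16, aligned with STAR 2.6.1b and counted with featureCounts 1.6.3, and the build was R64 (sacCer3). The deposited raw counts cover whole genes and, in a second table, sense reads over the middle 70% of genes. The authors' deposited table of comparisons holds log2 fold changes and adjusted p-values from DESeq2 1.22.2. How reads that match several genes were counted is not given in the sources used here.

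The deposited full-gene counts were tested with edgeR 4.0.16 in R 4.3.3 (filterByExpr, which left out 205 genes, TMM, quasi-likelihood test). A single model with a strain term held all 21 libraries, and the Benjamini-Hochberg threshold was 0.05. The common biological coefficient of variation was 0.154. Recovery was tested on simulated data for rpb1-FSP against WT. There 23 of 67 changes of 1.5-fold were called (34.3%), 64 of 67 of 2-fold (95.5%) and all 66 of 4-fold. Changes near 1.5-fold were thus mostly missed in the simulation, so a gene not called may still have changed by that much. Alternatives were DESeq2 1.42.0, other scalings, no filter, only the 6 libraries compared, a replicate block, the mid-gene table and leaving out each library. Same-numbered libraries of rpb1-FSP and spt6-KK deviated together (r = 0.485, 0.365 and 0.204 over genes), and this was taken from the data, since the labels do not say what a number marks. Between rpb1-FSP and rpb1-TPY the same-numbered values were r = 0.265, 0.269 and 0.0908, and those of unlike number were all below 0. The calls against rpb1-TPY given above came from the model without a replicate block.

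Members and gene lists were chosen with earlier results of these data known. Named genes were the 15 largest rises and falls with a mean count of at least 20 and no overlap in CPM between the strains. No overlap held for all 132 calls, so the separation of a called gene adds nothing to its call. Also named were up to 4 called members of each list (all of small lists), the neighbours of RPO21, and the 5 largest each way in the other contrasts by the same rule. Other genes named, among them TSA1, CCP1, TRS31, NIP7, ALB1, SRG1, RPL22B, RPL42A, UTR5, snR30, snR42, snR53 and those with both motifs, and the snoRNA classes, were chosen after their values were seen. Sequences and coordinates came from the RefSeq R64 genome, whose annotation matched 5623 of 5823 genes.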

Additional observations from a re-analysis of the deposited data

Results flagged for a closer look

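In 10 genes the effect of rpb1-FSP differed from that of rpb1-TPY by a direct test between the 2 strains (edgeR, adjusted p under 0.05, 3 libraries each). These were the 5 largest differences each way. Higher in rpb1-FSP were IMD2 by log2 2.599, YIL169C by 2.55, BIO2 by 2.07, SER3 by 1.95 and RRT5, a gene of uncharacterised function, by 1.86. Lower in rpb1-FSP were RRN11 at log2 -1.59, GLO4 at -1.48, FLO11 at -1.37, VPS71 at -1.25 and CAR2 at -1.25. Of these, 3 did not differ from WT at the threshold in rpb1-FSP. RRN11, a subunit of an RNA polymerase I initiation factor, averaged 12 ± 2.07 CPM in rpb1-FSP, 36.2 ± 10.5 CPM in rpb1-TPY and 20.1 ± 4.26 CPM in WT (SD, n = 3). VPS71, a subunit of the SWR1 chromatin remodelling complex, averaged 10.9 ± 2.54, 25.9 ± 2.22 and 12.6 ± 0.977 CPM in the same order, and GLO4, a mitochondrial glyoxalase, 1.61 ± 0.285, 4.55 ± 0.774 and 3.60 ± 1.35 CPM.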

How the results depend on the processing

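For rpb1-FSP against WT the 132 calls became 437 (168 higher, 269 lower) when only the 6 libraries were fitted and 241 (84, 157) with DESeq2, and leaving out 1 library gave 49 to 110 (24 to 41 higher, 24 to 69 lower). The replicate block kept all 132 calls and added 45; numbers of these 2 strains did not pair (r = 0.053, -0.19 and 0.13). RLE scaling kept 116 and upper-quartile scaling 124. On mid-gene counts the 122 calls became 416 (150, 266) with 6 libraries, 231 (158 lower) with DESeq2, 50 to 108 (23 to 46 higher, 27 to 62 lower) without 1 library, and the block gave 77 higher. Among named genes ADH2 alone reversed, at -0.45 on mid-gene counts. Against rpb1-TPY the 103 calls became 171 (80, 91) with DESeq2, 61 (27 lower) on mid-gene counts and 33 to 183 (19 to 78 higher, 13 to 105 lower) without 1 library, and 31 were lower with 6 libraries. Against rpb1-FSP the double mutant had 583 to 937 calls (262 to 493 higher, 314 to 444 lower) without 1 library. Against spt6-KK the 21 calls became 57 (34, 23) with 6 libraries, 144 (56, 88) with the block, 200 (107, 93) with DESeq2, 11 (3 lower) on mid-gene counts and 0 to 445 (0 to 141, 0 to 304) without 1 library. For each of these changes the cause was not tested, beyond fewer libraries in the fits that leave some out. The smallest called change in rpb1-FSP against WT was 0.39 on the log2 scale, and the part of depth in that was not tested.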

Other observations

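Called genes that lie next to each other were mixed in direction. Of 5551 adjacent pairs of tested genes 8 had both members called in rpb1-FSP against WT (0.144%), 4 in the same and 4 in opposite directions. Of single genes 2.35% were called, and whether 8 pairs are more or fewer than that rate gives was not tested. RRT5 and RPL29 are a tandem pair 298 bases apart: RRT5 was higher (log2 2.16) and RPL29 lower (-0.85). The H/ACA gene snR43 and LDB16 diverge from a shared region of 308 bases, and snR43 was lower (-1.14) while LDB16 was higher (0.65). YOR292C (0.68) and RPS10A (-0.47) diverge from 515 bases in the same manner. Among the pairs that moved together were RPS22A and RPL39, which diverge from 630 bases, and RPL24A and RPL30, which diverge from 1156 bases.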
